A study of Mus musculus with 14 samples.

Results

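The genes described here are the 56 zinc finger genes whose symbols run from Zfp900 to Zfp999, out of 17552 genes with a value in mouse liver. They were chosen by symbol alone, with no use of their measured levels. The range is not complete: Zfp968 and Zfp969, for example, had no value under these symbols and are left out. Liver RNA came from male C57BL/6 mice (C57BL/6J in the methods of the study) lacking apolipoprotein E, a protein that clears lipoprotein remnants from blood, and both groups carried this deletion in every tissue. The control group received a Western diet, and the other group received the same diet with 10 mg/kg of erythrodiol, a triterpene of the olive. The labels give an age of 8 weeks and 8 weeks on the diets, while the methods of the study give 12 weeks. Each group held 7 libraries, each made from RNA pooled from 2 or 3 mice, with 14 control and 15 erythrodiol mice in all. For genes there was 1 count per group, summed over its libraries, so that no test between replicates could be made and every interval covers counting error only.

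Zinc finger proteins of this kind carry a tandem row of fingers, each folded around a zinc ion held by paired cysteines and histidines, and the row reads a DNA sequence. Most also carry a KRAB domain, which recruits the corepressor KAP1 (Trim28), and KAP1 brings the histone methyltransferase Setdb1 and heterochromatin proteins to the site. Many of these proteins silence transposable elements, and their genes lie in clusters of recent duplicates whose copies can be nearly identical. Clusters on mouse chromosomes 2 and 4 are among those known to keep endogenous retroviruses silent in embryonic stem cells. The KEGG annotation deposited with the table placed 55 of the 56 genes among KRAB zinc finger proteins, and the exception was Zfp957.

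Copies within a cluster can be too alike for a read to be tied to 1 gene, and the chromosome 2 genes are shown here as the closest case. The 8 lines hold 84 bases (28 codons) of coding sequence from GENCODE M21 transcripts on GRCm38, read 5′ to 3′ on the strand of the gene, from the finger row of Zfp967 and from the closest stretch within 1 exon of each of the 7 other Zfp9 genes of its cluster. Capitals mark bases that differ from Zfp967.
Zfp967: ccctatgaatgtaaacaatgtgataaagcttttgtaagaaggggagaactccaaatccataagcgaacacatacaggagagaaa
Zfp965: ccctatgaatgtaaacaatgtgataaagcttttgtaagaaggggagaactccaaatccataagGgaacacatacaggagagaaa
Zfp966: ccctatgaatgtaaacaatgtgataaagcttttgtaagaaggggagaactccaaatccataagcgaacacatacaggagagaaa
Zfp973: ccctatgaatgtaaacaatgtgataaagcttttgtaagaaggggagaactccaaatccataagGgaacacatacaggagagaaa
Zfp970: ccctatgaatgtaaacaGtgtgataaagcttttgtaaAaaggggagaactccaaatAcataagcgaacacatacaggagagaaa
Zfp972: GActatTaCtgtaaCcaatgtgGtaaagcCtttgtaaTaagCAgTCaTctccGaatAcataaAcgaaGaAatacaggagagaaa
Zfp971: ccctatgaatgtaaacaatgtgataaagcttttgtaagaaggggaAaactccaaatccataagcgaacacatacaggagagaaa
Zfp931: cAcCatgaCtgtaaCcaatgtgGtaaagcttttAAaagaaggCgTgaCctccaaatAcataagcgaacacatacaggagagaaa
In Zfp967 the stretch lies at chr2:176531068-176531151 (plus strand), and in Zfp966 at chr2:175920953-175921036 (minus strand), with 0 differences. Zfp965 at chr2:175480077-175480160 (plus strand) and Zfp973 at chr2:176680614-176680697 (plus strand) each differed at 1 base and were the same as each other. Zfp971 at chr2:178033333-178033416 (plus strand) also differed at 1 base, at another position. Zfp970 at chr2:177475526-177475609 (plus strand) differed at 3 bases. The more distant copies were Zfp931 at chr2:178068205-178068288 (minus strand), with 11 differences, and Zfp972 at chr2:177919960-177920043 (minus strand), with 18. In 7 of the 8 stretches the translated bases held 1 complete finger, taken as 2 cysteines 2 residues apart, 12 residues, and 2 histidines 3 to 5 residues apart, and in Zfp972 they held 0.

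Over whole coding sequences, Zfp965 and Zfp973 (954 bases each) were identical, as were Zfp966 and Zfp967 (1455 bases each). Zfp991 and Zfp992 on chromosome 4 (1719 bases each) differed at 8 positions. By the same finger rule the longest coding transcript of each gene held a median of 11 fingers over the 55 genes with a coding transcript, and up to 21 in Zfp974. No complete finger was found in Zfp935, Zfp957 and Zfp972, and Zfp939 had no coding transcript in this annotation.

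The libraries held between 34856340 and 55244294 clean reads in the control group and between 47669656 and 48058606 in the erythrodiol group, and the summed gene counts were 122889032 and 124686047. The 5 hepatocyte markers (Alb, Apoa1, Ttr, Cyp2e1 and Serpina1a) summed to 103415 in CPM (counts scaled to a group total of 1000000) in the control and 103783 in the erythrodiol group, so the liver label holds. Of the 4 Kupffer cell markers all were detected, and their sum was 770 CPM in the control and 482 in the erythrodiol group, for a ratio of 0.626. The 5 lymphocyte markers summed to 31.9 and 27.7 CPM, the 4 endothelial markers to 123 and 125, and the 3 stellate cell markers to 296 and 265. The sums for bile duct (13.3 and 10.8), exocrine pancreas (13.1 and 9.41) and muscle (0.269 and 0.0240, with Ttn and Ckm at 0 with erythrodiol) were lower in the erythrodiol group. Single markers need not follow their sum: the study lists Ctrb1, 1 of the 4 exocrine pancreas markers, as higher with erythrodiol. The muscle sum with erythrodiol lies at the level of 3 counts. Whether these differences in other cells play a part in the results on zinc finger genes was not tested, and in such bulk RNA fewer cells of a type and less RNA per cell cannot be told apart.

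The zinc finger genes lay somewhat below the middle of all genes in level, and 2 genes of chromosome 2 stood at the top. Divided by transcript length, their level over both groups had a median of 1.67 CPM per kilobase, against 2.54 over all genes, which put it at the 44.0th percentile of all genes, and 17 of the 56 genes were above that all-gene median. Per kilobase the highest were Zfp972, with 13.4 CPM in the control and 21.7 with erythrodiol, and Zfp970, with 12.8 and 18.1. Zfp982 (9.95 and 10.6 CPM per kilobase), Zfp971 (8.63 and 9.13) and Zfp950 (5.40 and 6.88) came next, and the values of the groups lie closer together in them than in the first pair. Zfp932, which is known to repress endogenous retroviruses in mouse embryonic stem cells together with its close copy Gm15446, stood at 3.88 and 4.08 CPM per kilobase. At the other end Zfp936 had 1.01 and 3 counts, Zfp957 had 8 and 6, and Zfp985 had 6.24 and 9.12, too few to place a ratio. In undivided counts the long transcript of Zfp970 (4664 bases) took 15.3% of all reads of the 56 genes in the control and 19.3% with erythrodiol, and the 10 genes with most counts over both groups took 50.3% of the control reads. These 10 were Zfp970, Zfp950, Zfp992, Zfp946, Zfp971, Zfp972, Zfp982, Zfp942, Zfp932 and Zfp994.

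**Figure D1:**
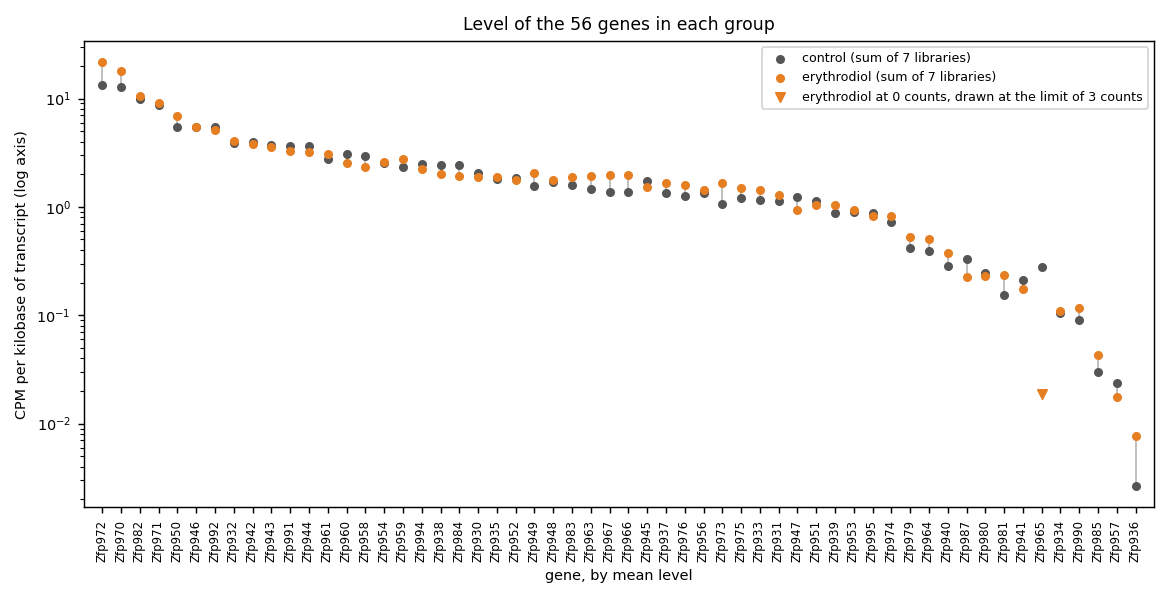
Level of each of the 56 genes in CPM per kilobase of transcript on a log axis, with the control group in grey and the erythrodiol group in orange, joined by a line, and genes ordered by mean level. Zfp972 and Zfp970 lead, each higher in the erythrodiol group, and the triangle for Zfp965, at 0 with erythrodiol, is drawn at the level of 3 counts.

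Summed, the 56 genes were 1.12 times as high with erythrodiol as in the control, from 48029 to 54384 counts (391 to 436 CPM; 95% counting interval of the ratio 1.10 to 1.13). Of that difference of 45.3 CPM, Zfp970 made up 24.6 CPM, and without it the ratio was 1.06. Most liver genes were a little higher in the scaled erythrodiol counts: over the 13291 genes with at least 100 counts the median log2 ratio was 0.16. Relative to this median the summed ratio of the zinc finger genes was 0.997, and relative to genes of like transcript length it was 0.986. Gene by gene, 34 were higher and 20 lower among the 54 with at least 10 counts and counts in both groups. Their median log2 ratio was 0.07 (quartiles -0.11 and 0.33), against 0.15 over all 15488 such genes, of which 10554 were higher and 4934 lower. Relative to the all-gene median the zinc finger median was -0.089, and relative to genes of like length -0.075. The 296 other genes with a Zfp symbol had a median log2 ratio of 0.22, or 0.059 relative to the all-gene median, and 62 of them were lower against 228 higher.

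**Figure D2:**
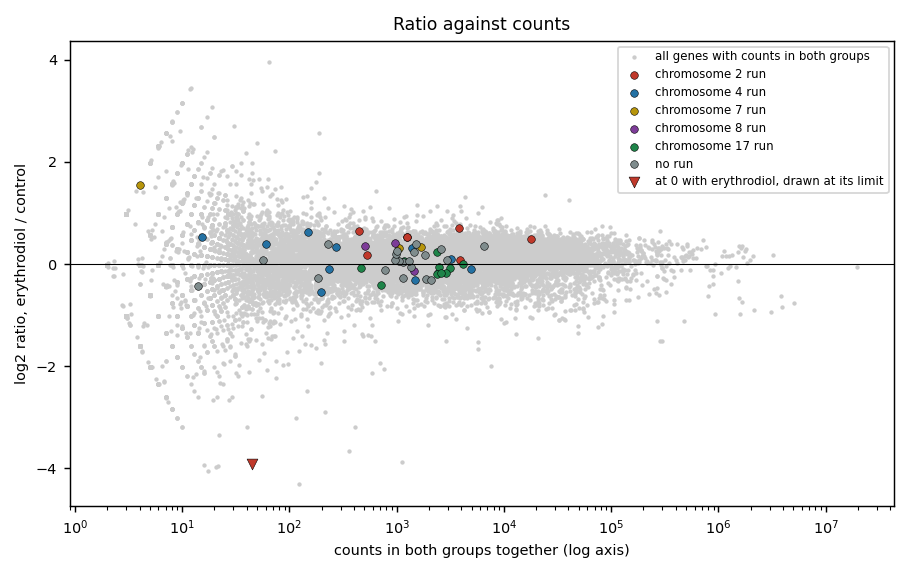
The log2 ratio against the counts in both groups together (log axis), with all genes that have counts in both groups in grey and the zinc finger genes in colour by genomic run. Among genes with at least 10 counts and counts in both groups the zinc finger genes lie between -0.54 and 0.70, while the triangle for Zfp965 is its limit of -3.91.

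No gene of the set was called higher at 2-fold with a counting interval that leaves out 1, where 0.714% of all genes were. Called lower was 1 gene, Zfp965, against a background of 1.23% of all genes, or 1.94% in either direction. At a 1.5-fold limit 3 were higher, Zfp972, Zfp973 and Zfp981, against a background of 2.71%, and Zfp965 stayed the 1 that was lower, against 3.33%, with 6.05% of all genes past this limit in either direction. With no fold limit, the interval lay above 1 in 19 genes (33.9%, background 42.3%) and below 1 in 12 (21.4%, background 14.2%), and it held 1 in the other 25. Set against genes of like length, 9 intervals lay above and 20 below, where 24.5% and 25.0% of all genes did. Against the all-gene median the numbers were 11 and 19, with backgrounds of 25.6% and 26.2%. These are counts on pooled reads, and how many would stand against the spread between mice cannot be told.

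**Figure D3:**
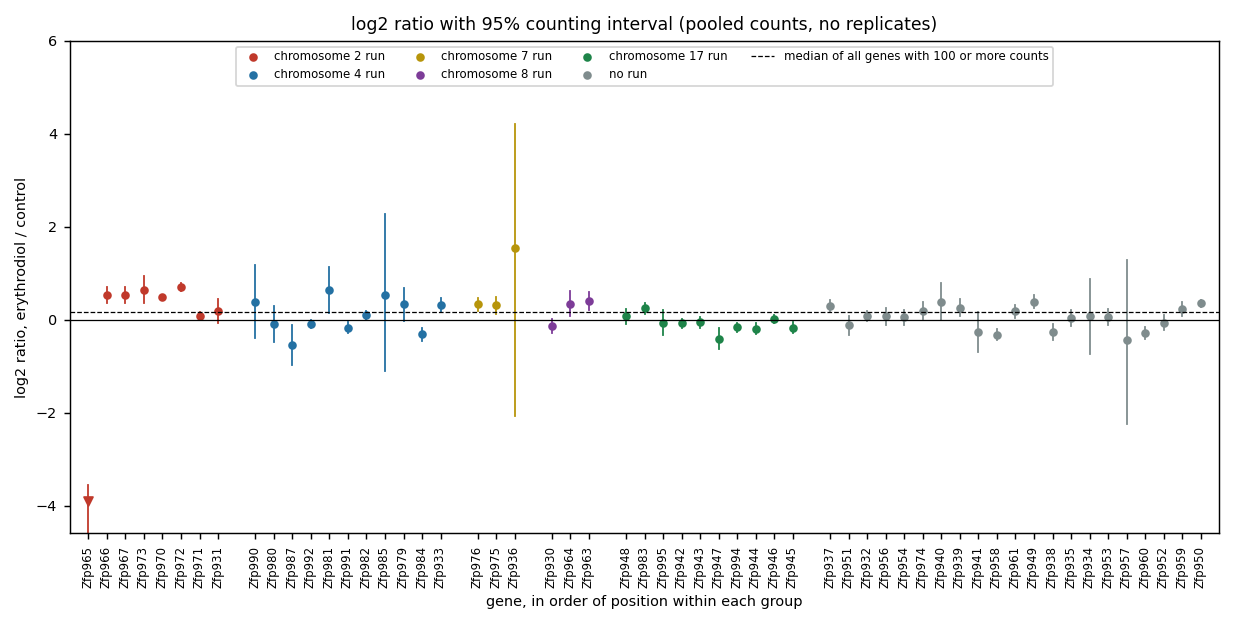
The log2 ratio of erythrodiol to control for each gene (points) with its 95% counting interval (lines), grouped by genomic run and ordered by position, with the median of all genes with 100 or more counts as a dashed line at 0.16. Chromosome 2 genes other than Zfp965 lie above 0, from 0.08 to 0.70, and chromosome 17 genes lie between -0.41 and 0.24. The line of Zfp936 is cut off inside the panel, below the upper end of its interval.

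By position, 35 of the 56 genes fell into 5 runs of at least 3 genes with gaps of up to 2 Mb, and the chromosome 2 run had the highest ratio of summed counts. The chromosome 2 run (8 genes, chr2:175470025-178078425) was higher with erythrodiol, from 12139 to 16953 counts, a ratio of 1.38 (1.34 to 1.41). The 11 genes on chromosome 4 (chr4:145510759-147849126) had 7173 and 7102 counts, a ratio of 0.976 (0.944 to 1.01), and the 10 on chromosome 17 (chr17:21565816-22867309) had 11323 and 11003, a ratio of 0.958 (0.933 to 0.983). The counting interval of the chromosome 2 run overlapped neither of these, nor that of the 21 genes outside any run, whose ratio was 1.08 (1.06 to 1.11). The 3 genes on chromosome 7 (chr7:42609514-43192109) had a ratio of 1.25 (1.16 to 1.35), an interval that overlapped that of chromosome 2, and the 3 on chromosome 8 (chr8:69209018-69749962) had 1.09 (1.02 to 1.18). The intervals of chromosomes 4 and 17 overlapped each other, as did those of chromosomes 7 and 8. None of these intervals holds the error of dividing reads between copies. Relative to the all-gene median the ratios were 1.23 on chromosome 2, 1.12 on chromosome 7, 0.977 on chromosome 8, 0.872 on chromosome 4 and 0.856 on chromosome 17, so that chromosome 8 then lay below 1. The 14 other genes of the table inside the chromosome 2 interval had 14945 and 15392 counts together, a ratio of 1.02 (0.992 to 1.04), below that of the Zfp9 genes among them.

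**Figure D4:**
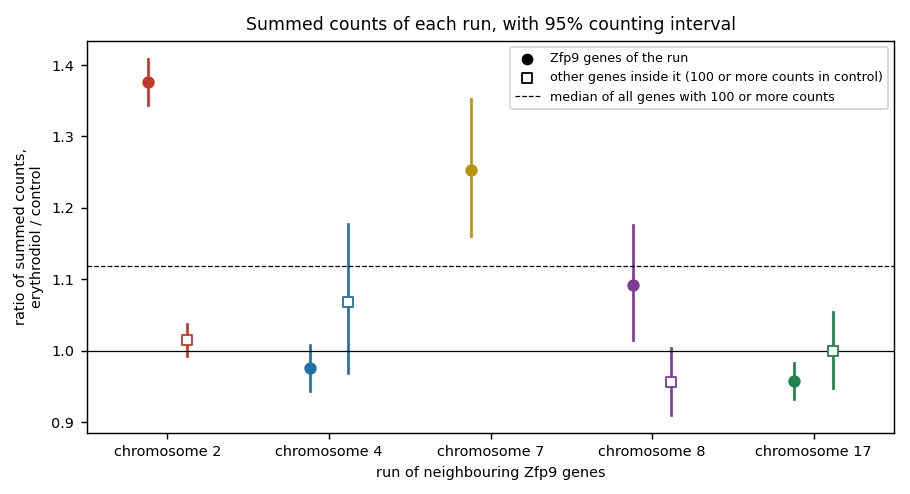
Ratio of summed counts, erythrodiol over control, for the Zfp9 genes of each run (filled circles) and for the other genes inside the same interval where these had 100 or more control counts (open squares), with 95% counting intervals and the all-gene median dashed. The chromosome 2 run stands at 1.38 beside 1.02 for the other genes inside its interval, and the chromosome 4 and 17 runs stand at 0.976 and 0.958. The other genes were not sorted into copies that may share reads with the run and unrelated genes.

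Within the chromosome 2 run 7 of 8 genes were higher with erythrodiol and 1 was at 0. Zfp970, on chr2:177464742-177479194, had 7343 control counts and 10516 erythrodiol counts, a log2 ratio of 0.50. Zfp972 had 1452 and 2394 counts, with a log2 ratio of 0.70 (ratio 1.63, 1.52 to 1.74), the highest of the genes with at least 100 counts. Without Zfp970 the run still stood at 1.32 (1.27 to 1.37). Closer to 1 in the same run, Zfp971 had 1868 and 2007 counts, a log2 ratio of 0.08, and Zfp931 had 248 and 286, a log2 ratio of 0.18. Both of these intervals held 1, and the Zfp970 and Zfp972 intervals did not.

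Zfp966 and Zfp967 cannot be told apart in these values: each had 505.06 control counts and 737.92 erythrodiol counts, at the same length of 3005 bases. Their coding sequences are identical, and all 1677 windows of 100 bases in Zfp967 transcripts are also found in Zfp966 and in Zfp968, which was not analysed here. Their common log2 ratio was 0.53, and together they had 1010 and 1476 counts, a ratio of 1.44 (1.33 to 1.56). In the medians and the numbers of genes higher given above, these equal values are counted as 2 genes. Among all genes there were 22 sets of 2 or more genes with the same non-whole counts and the same length.

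Zfp965, on chr2:175470025-175480553, was the 1 gene of the 56 at 0 in a group, with 44.42 control counts and 0 erythrodiol counts. With 3 counts in place of the 0 and the control count taken as it is, Zfp965 was 15-fold lower. The counting interval of the ratio, which holds the error of both counts, reached up to 0.0853, a smaller difference. That interval does not hold the error of dividing reads between copies. A count of 0 in 1 group alone was found in 5.85% of all genes with counts. In the study, quantitative PCR on single mice found no significant change in Zfp965. The same held for Zfp969, which the study lists as lower by sequencing. Zfp973, on chr2:176670522-176681090, which has the same coding sequence as Zfp965, had 172.93 control counts and 274.62 erythrodiol counts, a log2 ratio of 0.65. The study reports checking its primers for gene specificity, and whether those for Zfp965 leave out Zfp973 was not tested here. The pair together had 217.35 and 274.62 counts, so that the sum was 1.25 times as high with erythrodiol (1.04 to 1.49) while the values of the copies lay on opposite sides of 1. Of the 100-base windows of Zfp965, 83.7% are found in Zfp973 and 93.4% in some other gene. A further gene of the same finger family by its deposited protein name, LOC102639505, had 49.49 and 0 counts, and it was picked out after its values were seen. The share of reads mapped to more than 1 place in the gene reference ran from 8.18 to 30.07 percentage points over control libraries and from 9.58 to 15.11 over erythrodiol libraries, and its part in these splits was not tested.

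On chromosome 4 the genes went both ways. Zfp981 was higher, with 57.65 and 90.78 counts (log2 ratio 0.63), and so was Zfp933, with 616 and 779 (0.32). Lower were Zfp987, with 115 and 80.18 counts (-0.54), the lowest log2 ratio among genes with at least 100 counts, Zfp984, with 809 and 657 (-0.32), and Zfp991, with 1269 and 1141 (-0.17). The intervals of these 5 left out 1, as did that of Zfp992, with 2498 and 2381 counts (-0.09). Zfp991 and Zfp992, which share 38.8% of the windows of Zfp991, were on the same side and had 3768 and 3522 counts together, a ratio of 0.921 (0.880 to 0.965). For Zfp982 (1535 and 1661), Zfp980 (121 and 115), Zfp979 (120 and 153), Zfp990 (26.01 and 34.48) and Zfp985 the interval held 1.

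The chromosome 17 run leaned the other way, with 7 of its 10 genes lower with erythrodiol. Zfp947 had 406 and 311 counts (log2 ratio -0.41), Zfp944 1250 and 1109 (-0.19), Zfp945 1358 and 1224 (-0.17) and Zfp994 1500 and 1354 (-0.17), and the intervals of these 4 lay below 1. Zfp983, with 1090 and 1310 counts (0.24), was the 1 gene whose interval lay above 1. The remaining genes, Zfp948, Zfp995, Zfp942, Zfp943 and Zfp946, had log2 ratios between -0.08 and 0.07 with intervals that held 1. These copies share few windows, at most 5.39% of a gene, against a median of 52.6% over the chromosome 2 genes.

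On chromosome 7, Zfp976 had 734 and 938 counts and Zfp975 467 and 587, with log2 ratios of 0.33 and 0.31. On chromosome 8, Zfp963 had 411 and 551 counts (0.40), Zfp964 221 and 285 (0.35) and Zfp930 751 and 697 (-0.13). Without Zfp930, the gene with most counts there, the chromosome 8 ratio was 1.30, so that 1 gene decides that sum. Outside the runs, the ratios furthest below 1 in genes with at least 100 counts were those of Zfp958, with 1141 and 927 counts (-0.32), and Zfp960, with 1018 and 845 (-0.29). Furthest above were Zfp949, with 651 and 865 counts (0.39), Zfp940, with 98 and 130 (0.39, interval holding 1), and Zfp950, with 2874 and 3715 (0.35).

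Non-whole counts were common among the zinc finger genes. Reads that match several transcripts are divided among them by the counting method, which leaves fractions, and 38 of the 56 genes (67.9%) had a count more than 0.01 from a whole number in a group, against 18.9% of all genes with counts and 26.4% of the other Zfp genes. All 8 genes of the chromosome 2 run were non-whole, as were 10 of 11 on chromosome 4, 7 of 10 on chromosome 17 and 10 of the 21 outside the runs. Of the 8 genes that share at least 50% of their 100-base windows (the read length) with another gene, 8 were non-whole. Of the 12 that share 10 to 50%, 11 were non-whole. Of the 36 that share less than 10%, 19 were non-whole and 17 whole, and of the 14 with no shared window 4 were non-whole. Windows shared between Zfp9 genes linked 29 pairs, and in each of the 29 pairs both genes lay in the same run. The most shared genes outside chromosome 2 were Zfp935, with 99.3% of its windows in another gene, Zfp987 with 70.8%, Zfp991 with 70.3% and Zfp960 with 68.3%, the last all in Zfp97.

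**Figure D5:**
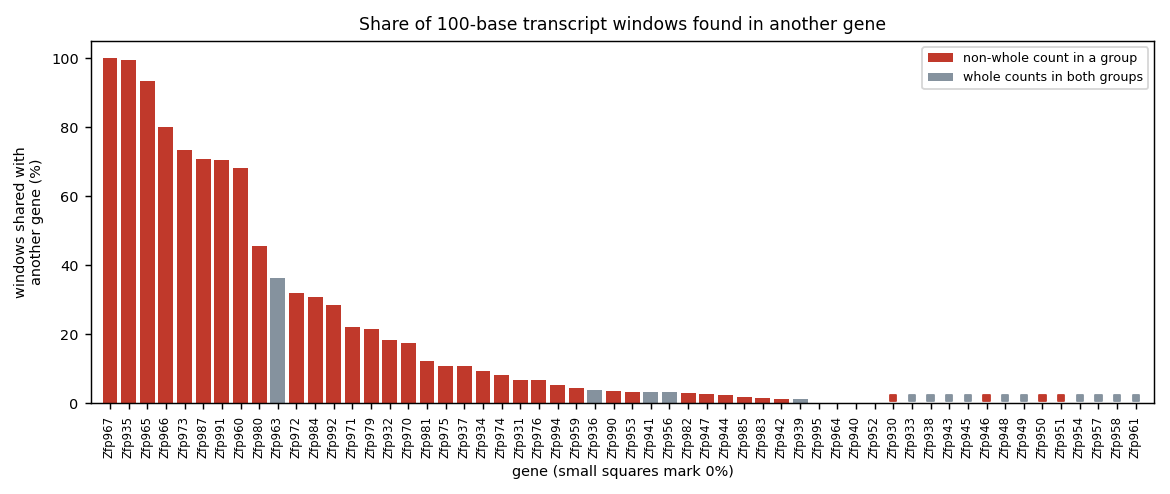
Percent of the 100-base transcript windows of each gene that are found in another gene, with genes that had a non-whole count in red and those with whole counts in grey, and small squares at 0%. The 8 genes at or above 50% are red, and whole counts gather at the low end.

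Genes that act with KRAB proteins were measured alongside, as a list of 20 corepressor, heterochromatin and DNA methylation genes. Their median log2 ratio was 0.26, with 16 higher and 4 lower, or 0.10 relative to the all-gene median and -0.015 relative to genes of like length, so that the side depends on the scaling. None passed 2-fold. Trim28, which encodes KAP1, had 6508 and 8067 counts (log2 ratio 0.29), and Setdb1, the histone H3 lysine methyltransferase it recruits, had 2872 and 3878 (0.41). Its cofactor Atf7ip had 3193 and 4412 (0.45), and the NuRD remodellers Chd3 and Chd4 had 12648 and 18669 (0.54) and 10947 and 13809 (0.31). The HP1 genes split, with Cbx5 at 0.21, Cbx1 at 0.14 and Cbx3 at -0.25, and the histone deacetylases Hdac1 and Hdac2 were at -0.07 and -0.27. The HUSH complex genes Fam208a, Mphosph8 and Pphln1 were at 0.37, 0.08 and 0.31, and Morc2a and Morc3 at 0.36 and 0.14. Atrx and Daxx, which deposit histone H3.3 at repeats, were at 0.30 and 0.37. Dnmt1 and Dnmt3a, which methylate DNA, were at 0.24 and 0.23, and Uhrf1, which recruits Dnmt1, was lowest at -0.65 with 179 and 116 counts.

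Transcripts that the authors assembled beyond the reference were listed for 18 of the 56 genes, with 36 transcripts in all and up to 5 in Zfp982. That share, 32.1%, was near the 32.4% of the other Zfp genes and the 28.5% of all genes. These transcripts have no value per group.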

How the data were processed

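Liver RNA of 7 control and 7 erythrodiol pools was sequenced for the study. The authors deposited, for each library, a count of clean reads and mapping rates in percent. The deposited gene values are RSEM expected counts, 1 per gene and group, made with Bowtie2 and RSEM on reference and assembled coding transcripts and summed over the libraries, with no normalization. Fold changes, p-values and q-values of the authors in the same table were not used.

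The genes were chosen by symbol, and the gene lists and rules were chosen with earlier results of these data known. Counts were divided by the group total. Ratios carry exact conditional binomial (Clopper-Pearson) intervals at 95%, made from the counts as they are and without the error of dividing shared reads. The ratio itself, but not its interval, has 3 counts in place of a 0. A call needed 2-fold and an interval leaving out 1. Runs held at least 3 genes with gaps of up to 2 Mb. Positions are RefSeq's for GRCm38.p6. Shared windows of 100 bases came from GENCODE M21 (GRCm38), which is not the reference of the authors' counts. Named genes are those called or at 0, the 10 highest, the 5 highest and 5 lowest ratios with at least 100 counts, the genes of runs, the KAP1 list and the 3 pairs sharing most windows, which replaced protein identity since no protein table was used. Biopython 1.88, scipy 1.17.1, pandas 2.3.3, numpy 2.4.6 and matplotlib 3.10.9 ran under Python 3.11.15, and the ratio code was tested on simulated data. Other genes picked out after their values were seen are LOC102639505, Zfp949, Zfp940, Zfp957, Zfp985 and Zfp936. Alternatives were other scalings, fold limits, count minimums, a pseudocount of 1, gaps of 0.5 and 5 Mb, rounding, and the highest gene left out. Leaving out Zfp965 was added after seeing the data.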

Additional observations from a re-analysis of the deposited data

Results flagged for a closer look

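Control replicate 3 mapped 64.33% of its clean reads to genes, and the nearest of the other 6 control libraries mapped 74.39%. This gap is 0.588 of the range of the 7 control libraries, above the limit of 0.568 for a sample far from its group. For 1 measure, chance passes that limit in about 1 of 20 groups. The rule was also applied to clean reads and to the percent mapped to 1 gene, in both groups. A pass somewhere by chance is therefore likelier than that. Gene counts were pooled over the libraries, so the zinc finger genes could not be given without it.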

How the results depend on the processing

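No paired analysis was possible because gene counts were pooled over the 7 libraries of each group, and for the same reason no library could be left out. Of 54 alternative values, 29 kept their direction and size, 17 moved and 8 changed direction. Relative to the all-gene median and to genes of like length, in that order, the median log2 ratio became -0.089 and -0.075 for the zinc finger genes, 0.059 and -0.0020 for the other Zfp genes, and 0.10 and -0.015 for the KAP1 list. In the same order the ratio of summed counts became 0.997 and 0.986 for all 56 genes, 1.23 and 1.25 for the chromosome 2 run, 0.872 and 0.880 for chromosome 4, 1.12 and 1.06 for chromosome 7, 0.977 and 0.971 for chromosome 8, and 0.856 and 0.829 for chromosome 17. Without the gene with most counts the ratio was 1.06 for all genes, 1.32 for chromosome 2 and 1.30 for chromosome 8. Without Zfp965 the chromosome 2 run stood at 1.38. The number of genes called higher was 1 against genes of like length, 3 at a 1.5-fold limit and 1 without the interval, and the number called lower was 0 with at least 100 counts. Counts near 0 limit Zfp965, Zfp936, Zfp957 and Zfp985. The division of reads between copies limits Zfp965 as well. It also limits the other genes that share at least 50% of their windows: Zfp935, Zfp960, Zfp966, Zfp967, Zfp973, Zfp987 and Zfp991. Genes that share fewer windows need not be free of it.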
